A study of Mus musculus with 21 samples.

Results

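The cytosolic ribosomal proteins are the proteins that, together with ribosomal RNA, build the large and the small subunit of the ribosome in the cytoplasm. Their genes were taken as every symbol in the count files made of Rpl or Rps and a number, with at most one letter a, x, l or y and one more digit after it, together with Rplp0, Rplp1, Rplp2 and Rpsa and without the Rps6k kinases. The rule found 82 symbols, 49 of the large and 33 of the small subunit, among 23204 symbols in all, and 79 of them were among the 11669 genes that passed the filter on low counts. The rule uses names only and no measured value. It takes in Rps4l, which GENCODE vM21 lists as a transcribed processed pseudogene and which is counted here by its symbol with the small subunit.

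Messenger RNA was measured in lung fibroblasts of female C57BL/6 mice that carry a Col1a2-GFP transgene, so that cells in which the promoter of the collagen gene Col1a2 is active are fluorescent. All groups share this transgene, and the labels state no age. Mice were untreated, or were given a single aspirated dose of bleomycin (BLM, 2 mg/kg), a DNA-damaging drug whose fibrosis the series describes as reversible, or of crystalline silica (SiO2, 400 mg/kg), whose fibrosis it describes as progressive. Fibroblasts were taken at day 7, 14 or 63 after the dose, which gives 7 groups of 3 libraries, and the untreated group carries no saline dose in the labels. Cells negative for CD31, CD45, EpCAM, CD146 and Ter119 and positive for the fluorescent protein were sorted at 10000 per sample, and tags from the 3′ end of polyadenylated RNA were counted (3′SAGE-seq).

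Each ribosome carries a single copy of nearly every such protein, so cells make them in step, and an excess protein that is not assembled is degraded. In mammals their messenger RNAs begin with a stretch of pyrimidine bases, the terminal oligopyrimidine (TOP) tract, through which the kinase complex mTORC1 and the binding protein Larp1 control their translation and stability together. Growing and dividing cells, and fibroblasts that secrete large amounts of matrix, are known for a high demand for ribosomes.

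The region around the transcription start is shown for 6 members because the TOP tract lies there and because they differ in the response described further on. Windows run from 30 bases before to 30 bases from the start, 5′ to 3′ on the gene's strand, in build GRCm38.p6 (mm10) from RefSeq, and capitals mark the motifs CTTTC and CTTTTC.
Rpl4, chr9:64173357-64173416 (+ strand): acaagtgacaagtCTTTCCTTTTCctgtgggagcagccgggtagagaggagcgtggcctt
Rpl15, chr14:18270957-18271016 (- strand): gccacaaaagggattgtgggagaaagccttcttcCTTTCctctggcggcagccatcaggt
Rpl10a, chr17:28328535-28328594 (+ strand): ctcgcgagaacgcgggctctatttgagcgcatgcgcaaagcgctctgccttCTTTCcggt
Rpsa, chr9:120127736-120127795 (+ strand): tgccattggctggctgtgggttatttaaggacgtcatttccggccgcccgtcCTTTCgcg
Rps2, chr17:24720033-24720092 (+ strand): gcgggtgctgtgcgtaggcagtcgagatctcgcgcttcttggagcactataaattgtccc
Rps27, chr3:90213619-90213678 (- strand): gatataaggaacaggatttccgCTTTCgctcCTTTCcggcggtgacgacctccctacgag
Of the 82 members, 60 had a start in the RefSeq table, with 69 starts in all. The sense strand held CTTTC or CTTTTC between 20 bases before and 50 bases after the start in 36 of these 69 starts (52.2%), against 3635 of the 32851 starts of all genes in the table (11.1%). On the antisense strand the shares were 13.0% and 10.8%. The window of Rps2 held neither motif, and that of Rps27, a small-subunit protein that passed the test in none of the 15 comparisons, held CTTTC at both marked places. Rpl10a has another RefSeq start, with the window chr17:28328441-28328500, which is not printed above and held neither motif. In the 6 printed windows no marked motif begins at the annotated start itself. Both motifs of Rpl4 lie before the start, and those of Rpl15, Rpl10a and Rpsa begin at base 5, 22 and 23 of the transcript. A match describes these letters only, and whether a marked motif is part of a TOP tract was not tested. The 81 members with a coordinate in GENCODE vM21 lie on 19 chromosomes.

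Total counts ran from 2080636 (untreated replicate 3) to 4477283 per library, and the members took 141138 to 396846 of them. The sum of 11 fibroblast markers was 16839 to 30624 CPM (counts per library scaled by the TMM method to a common size) in the 21 libraries, against 5.1 to 38.3 CPM for 10 myeloid, 4.0 to 72.7 CPM for 6 lymphocyte and 4.2 to 34.0 CPM for 10 epithelial markers. Summed levels were higher, at 48.2 to 171.6 CPM for 8 pericyte and smooth muscle and 128.8 to 649.9 CPM for 8 mesothelial markers, and none of these listed markers was at 0 in every library. The fit called changes at an adjusted p under 0.05 by edgeR's quasi-likelihood test with Benjamini-Hochberg adjustment over the 11669 tested genes, and "rose", "fell", "higher" and "lower" below refer to it. Values after a gene are log2 fold changes ± SE with 3 libraries per group. Nothing in the labels says that the 3 libraries of a group came from separate mice, so the p-values measure the spread between these libraries only, which may be technical. In sorted bulk samples, fewer cells of a kind and less RNA per cell cannot be told apart.

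The members were measured at very different levels. Rpl8 of the large subunit had the highest mean over all libraries, 13657 CPM, and the means of Rpl5 and Rpl37a, both also of the large subunit, were 9366 CPM and 5880 CPM. There were 16 members over 1000 CPM, which held 91.7% of all member counts, 24 between 100 and 1000 CPM, 38 between 10 and 100 CPM and 4 under 10 CPM. Tags are counted once per 3′ end and do not grow with transcript length. Yet the proteins are needed in equal numbers, and many of the genes share their 3′ end with processed pseudogenes. A level here may therefore also reflect how tags with several matches were handled. That handling is not given in the sources used here, and its part in the levels was not tested.

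The 3′ ends were therefore compared with all other genes of the GENCODE annotation vM21. In 24 of the 80 members with an annotated transcript, no 25-base stretch of the last 200 bases occurred in another gene, and in 43 less than 50% of the stretches were unique. Levels are best read within a gene between groups. Some counts below are repeated for the 21 tested members whose 3′ end is unique, and some also for the 56 with shared stretches. The members Rpl6, Rpl3l and Rpl39l were not tested. Rpl6 had 83 counts in 18 of the 21 libraries. The heart and muscle paralog Rpl3l had 14 counts, and the testis paralog Rpl39l had 2.

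As a share of all counts, the members varied with model and time. They took 6.66%, 6.72% and 6.78% of the counts in the 3 untreated libraries. At day 7 the share was 8.40% ± 0.144 after BLM and 9.38% ± 0.464 after SiO2 (mean ± SD, n = 3). At day 14 the BLM libraries were at 8.63%, 7.43% and 7.94%, and the share was 6.36% ± 0.273 after SiO2, with libraries from 6.05% to 6.56%. All BLM day 14 libraries thus lay above all untreated ones. The SiO2 day 14 libraries lay below them, but with TMM-scaled library sizes SiO2 day 14 replicate 3, at 6.81%, was above all of them (6.61% to 6.71%). At day 63 both models were at 7.12%, with SDs of 0.14 after BLM and 0.0491 after SiO2. The large-subunit genes took 4.46% ± 0.0266 of the counts in untreated cells and the small-subunit genes 2.26% ± 0.0384. At day 63 the small-subunit share was 2.64% ± 0.0644 after BLM and 2.85% ± 0.11 after SiO2, whereas the large-subunit share was 4.48% ± 0.144 and 4.27% ± 0.0613. Sums are led by the few most abundant members and are given as a description without a test.

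**Figure D1:**
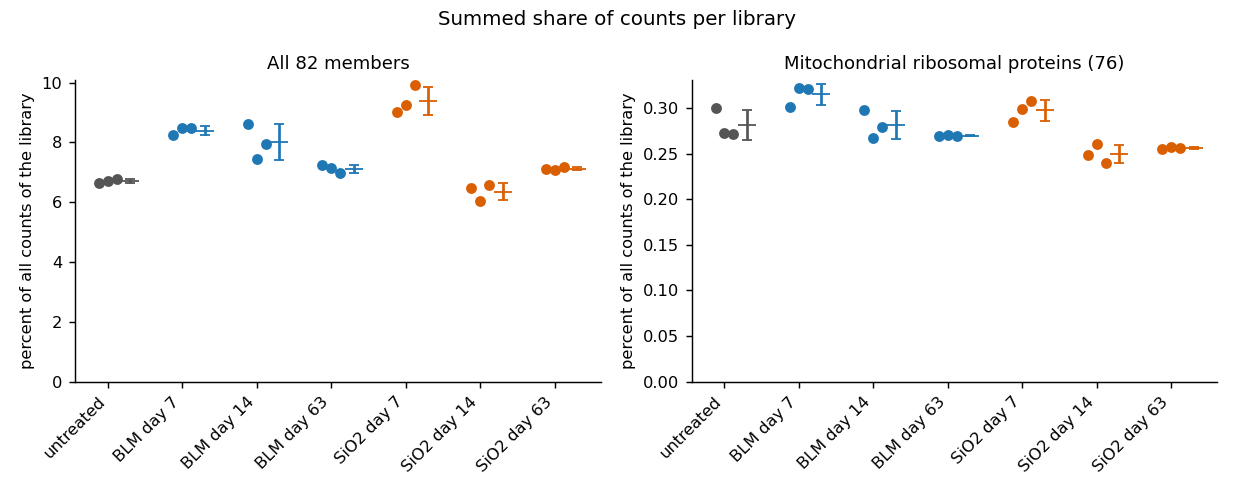
Percent of all counts of a library taken by the 82 members (left) and by 76 mitochondrial ribosomal protein genes (right), by group, with each library as a point and the mean ± SD of 3 libraries beside it. The member share is 6.66% to 6.78% in untreated libraries, highest at SiO2 day 7, and 6.05% to 6.56% at SiO2 day 14. The mitochondrial share ranges from 0.24% to 0.322% over the libraries. Its group mean is 0.281% untreated, highest at BLM day 7 (0.315%) and lowest at SiO2 day 14 (0.249%).

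At day 7 after BLM, 43 of the 79 tested members rose and 0 fell, where 16.7% of all tested genes rose and 14.9% fell. No member had an unadjusted p under 0.05 for a decrease, and DESeq2 called 38 higher and 0 lower. The members' median log2 fold change was 0.36, against 0.02 for all genes, and the range was -0.21 to 1.07. By subunit, 25 of 46 large-subunit and 18 of 33 small-subunit genes rose. Of the 21 members with a unique 3′ end, 9 rose, with a median of 0.27. Of the 56 with shared stretches, 34 rose, with a median of 0.41. Rplp0 (chromosome 5, 115559467 to 115563727, plus strand, in GENCODE vM21 on mm10), the protein that carries the acidic stalk of the large subunit, changed most. It was at 783, 664 and 926 CPM in the untreated libraries and at 1538, 1586 and 1837 CPM at BLM day 7. The groups did not overlap, and the change was 1.07 ± 0.15 (adjusted p = 2.64e-06, edgeR). Rpsa, a small-subunit protein also known as the laminin receptor, rose by 0.78 ± 0.12, from 2827, 2839 and 3099 CPM to 5026, 4197 and 5794 CPM, again without overlap. Rps2, which lines the entry of the messenger RNA channel, rose by 0.70 ± 0.11, and Rpl12, at the base of the stalk, by 0.72 ± 0.15.

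At day 7 after SiO2, 72 of the 79 rose and 0 fell, against 23.4% of all genes higher and 20.6% lower. No member had an unadjusted p under 0.05 for a decrease, and DESeq2 called 68 higher and 0 lower. The median was 0.62, against 0.04 for all genes, and every tested member had a positive fold change, the smallest being 0.09. By subunit, 42 of 46 large and 30 of 33 small members rose. This was also the group in which 72 of the 80 members with a mean of at least 1 CPM had their highest group mean. Of the 21 members with a unique 3′ end, 20 rose with a median of 0.62.

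Rplp0 again led. It reached 1704, 2014 and 2423 CPM at SiO2 day 7 and rose by 1.37 ± 0.16 (adjusted p = 1.5e-08, edgeR). Rps4x (chromosome X, 102184941 to 102189394, minus strand), a small-subunit protein with a counterpart on the human Y chromosome, was at 83.4, 108 and 97.4 CPM in untreated libraries and at 153, 269 and 277 CPM at SiO2 day 7. Its first library lay well below the other two but still above every untreated one, and the change was 1.27 ± 0.20. Rps2 went from 2386, 2620.5 and 2843 CPM to 4829, 5954 and 6692 CPM, a change of 1.15 ± 0.11 with no overlap. Rpl32, a small protein at the surface of the large subunit, rose by 1.26 ± 0.14, and Rps12l2, a symbol close to Rps12 with a mean of only 15.2 CPM, by 1.11 ± 0.25. The 7 members without a call at SiO2 day 7 were Rpl14, Rpl22, Rpl35, Rpl36, Rps16, Rps27 and Rps4l, with Rps27 at 64.8, 65.1 and 60.9 CPM in untreated libraries and 58.4, 86.6 and 59.2 CPM here.

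**Figure D2:**
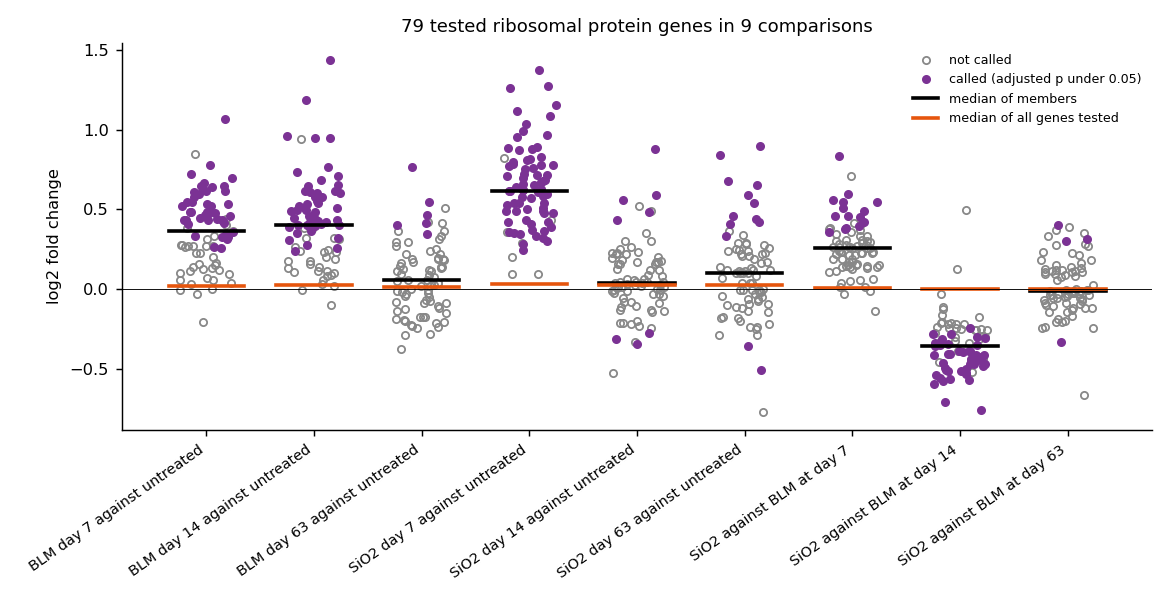
Log2 fold change of each of the 79 tested members (points, filled where the adjusted p was under 0.05) in 9 comparisons, with the median of the members (black line) and of all 11669 tested genes (orange line). The members' median is 0.62 at SiO2 day 7 and 0.40 at BLM day 14 but 0.04 at SiO2 day 14, while the median of all genes is near 0 throughout.

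Genes of cell division and markers of other cell types also moved at day 7. Of all tested genes, 16.7% rose and 14.9% fell at BLM day 7, and 23.4% rose and 20.6% fell at SiO2 day 7. Of 26 tested proliferation genes, 24 rose at BLM day 7 and 25 at SiO2 day 7. Their summed level was 356.9 to 438.4 CPM and 396.5 to 561.0 CPM, against 44.6 to 57.5 CPM in untreated libraries. The 10 epithelial markers summed to 29.6 to 34.0 CPM at BLM day 7 and 21.3 to 32.6 CPM at SiO2 day 7, against 8.5 to 13.1 CPM untreated. The 6 lymphocyte markers summed to 33.0 to 55.1 CPM and 30.3 to 72.7 CPM, against 4.9 to 10.8 CPM, and the 10 myeloid markers to 16.6 to 24.7 CPM and 14.4 to 17.0 CPM, against 6.2 to 8.9 CPM. The 8 pericyte and smooth muscle markers summed to 95.5 to 145.5 CPM and 140.5 to 161.5 CPM, against 48.2 to 52.4 CPM. The 8 mesothelial markers were at 274.4 to 385.3 CPM and 128.8 to 183.3 CPM, both below the untreated 521.4 to 649.9 CPM, with 1 of 7 tested lower and 1 higher at BLM day 7 and 6 of 7 lower at SiO2 day 7. The 7 endothelial markers summed to 23.2 to 25.2 CPM at BLM day 7, 8.1 to 13.0 CPM at SiO2 day 7 and 22.4 to 30.9 CPM untreated. The part of these in the change of the ribosomal protein genes was not tested.

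At day 14 the models parted. After BLM, 49 of the 79 members were higher than in untreated cells and 0 were lower, against 20.7% and 18.5% of all genes, with a median of 0.40. DESeq2 called 39 higher and 0 lower, and no member had an unadjusted p under 0.05 for a decrease. The small subunit contributed 25 of its 33 members and the large subunit 24 of 46. Of the 21 members with a unique 3′ end, 10 were higher, with a median of 0.32. Of the 56 with shared stretches, 38 were, with a median of 0.41. Rps4x was at 316, 190.0 and 276 CPM, above every untreated library, a change of 1.43 ± 0.20 (adjusted p = 9.74e-07, edgeR). Rpl32 rose by 1.19 ± 0.14, Rpl4 by 0.96 ± 0.15, Rplp0 by 0.95 ± 0.15 and Rps2 by 0.95 ± 0.11. From day 7 to day 14 of BLM, 3 members rose and 0 fell (5.2% and 4.82% of all genes), with a median of 0.02. Another 4 had an unadjusted p under 0.05 for a decrease, and DESeq2 called 3 higher and 0 lower. The 3 were Rps4x at 1.00 ± 0.20, Rpl32 at 0.52 ± 0.14 and Rpl4 at 0.47 ± 0.15. Without BLM day 7 replicate 1 or without BLM day 14 replicate 1, 1 member was called.

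After SiO2 at day 14, 5 of the 79 members were higher than in untreated cells and 3 lower, a share below that of all genes (13.6% and 10.5%), with a median of 0.04. The higher ones were Rps4x at 0.88 ± 0.20, Rpl7l1 at 0.59 ± 0.21, Rps2 at 0.56 ± 0.11, Rpl32 at 0.48 ± 0.14 and Rpl4 at 0.44 ± 0.15. The lower ones were Rpl5 at -0.34 ± 0.09, Rpl21 at -0.31 ± 0.11 and Rpl14 at -0.28 ± 0.09. Of the 21 members with a unique 3′ end, 1 was higher and 3 were lower, against 4 and 0 of the 56 with shared stretches. Rpl5, which with Rpl11 and 5S ribosomal RNA can bind the p53 inhibitor Mdm2, was at 9088, 9628 and 9295 CPM in untreated libraries and at 7449, 6527 and 8094 CPM at SiO2 day 14, so that all 3 SiO2 libraries were below all untreated ones. The median was -0.04 under upper quartile scaling. Rpl4 and Rpl7l1 lost their call under 3 other scalings and under DESeq2. Rpl32 lost its call without untreated replicate 1 or 3 or SiO2 day 14 replicate 1, and without the filter on low counts Rpl14 and Rpl21 were not called. The number of higher members was 2 without untreated replicate 1 or without SiO2 day 14 replicate 1. The number of lower members was 1 without untreated replicate 2 and 5 without untreated replicate 3.

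Within the SiO2 model, 69 of the 79 members fell from day 7 to day 14 and 0 rose (11.1% and 12.2% of all genes), with a median of -0.57. No member had an unadjusted p under 0.05 for an increase, and DESeq2 called 67 lower and 0 higher. All 21 tested members with a unique 3′ end were among those that fell. Rplp0 dropped from 1704, 2014 and 2423 CPM to 910.5, 806 and 1309 CPM (-1.02 ± 0.15). Rpl10a, a large-subunit protein near the exit of transfer RNA, went from 7750.0, 7023 and 8526 CPM to 4494, 4072 and 4469 CPM (-0.84 ± 0.09), against 4728, 4393 and 4627 CPM untreated. The latter 2 groups of Rpl10a overlap, whereas its day 7 libraries all lay higher.

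The change from day 7 to day 14 differed between the models for most members. As an interaction term, SiO2 minus BLM, 60 of 79 were lower and 0 higher (9.47% and 9.74% of all genes), with a median of -0.60. DESeq2 called 58 lower and 0 higher, and 0 members had an unadjusted p under 0.05 for a higher value. The day 7 to day 14 comparisons were added after values had been seen.

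The models were also compared directly on each day. At day 7, 15 members were higher after SiO2 than after BLM and 0 lower (5.29% and 5.1% of all genes), with a median of 0.26. No member had an unadjusted p under 0.05 for a lower value, and DESeq2 called 17 higher and 0 lower. Rps4x differed most, at 0.83 ± 0.20, although its libraries overlapped, and Rpl32 was higher by 0.60 ± 0.14 with no overlap. The count rested on single libraries, being 7 without BLM day 7 replicate 1, 8 without SiO2 day 7 replicate 2 and 6 without SiO2 day 7 replicate 3.

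At day 14 the order was reversed, with 45 members lower after SiO2 and 0 higher (8.03% and 9.06% of all genes) and a median of -0.36. A single member had an unadjusted p under 0.05 for a higher value, and DESeq2 called 44 lower and 0 higher. On the log2 scale the difference was -0.76 ± 0.20 for Rpl35, -0.71 ± 0.14 for Rpl32, -0.57 ± 0.09 for Rpl10a and -0.57 ± 0.11 for Rpl41, the smallest ribosomal protein. Rpl10a was at 6873, 6240.1 and 6281 CPM after BLM, without overlap. Of the 21 members with a unique 3′ end, 10 were lower. The call of Rpl35 was lost without BLM day 14 replicate 3. Without BLM day 14 replicate 1, the library with the highest member share of its group, 18 members were called lower, and without SiO2 day 14 replicate 2, the library with the lowest share, 25 were. The summed level of the proliferation genes moved in the same order, 167.7 to 321.7 CPM at BLM day 14 and 57.3 to 112.3 CPM at SiO2 day 14, while the epithelial markers were at 7.2 to 9.0 CPM and 7.7 to 10.9 CPM. Myeloid markers summed to 12.4 to 17.3 CPM at BLM day 14 and 26.2 to 38.3 CPM at SiO2 day 14, and lymphocyte markers to 9.4 to 15.9 CPM and 25.8 to 36.5 CPM, with both of the 2 tested lymphocyte markers higher. Pericyte and smooth muscle markers were at 127.3 to 171.6 CPM after BLM and 93.3 to 125.7 CPM after SiO2, and mesothelial markers at 390.2 to 445.2 CPM and 408.0 to 530.4 CPM. The part of these in the difference was not tested.

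**Figure D3:**
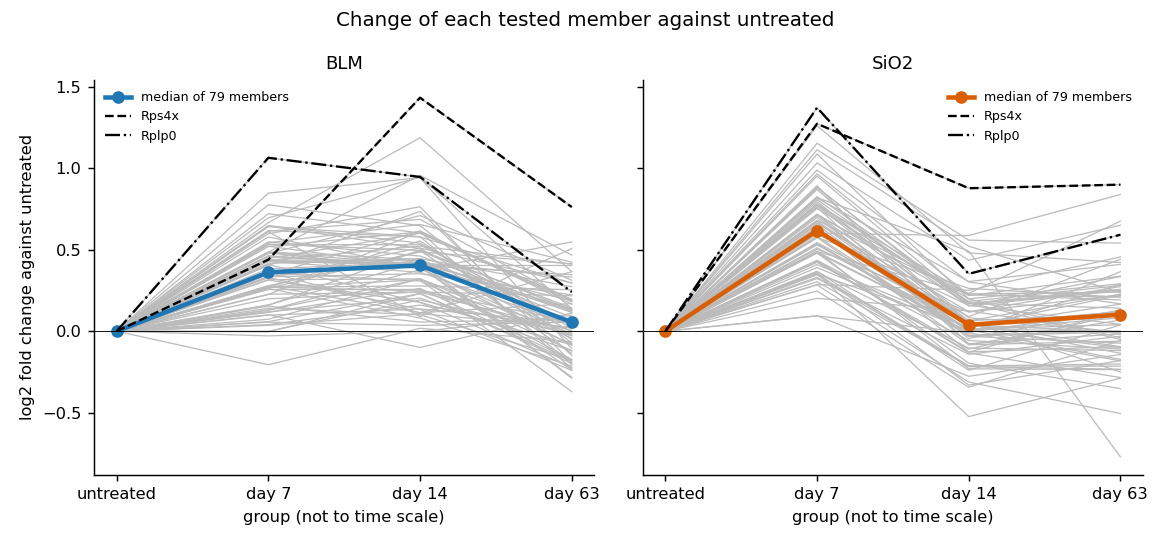
Log2 fold change against untreated of the 79 tested members (grey lines) at day 7, 14 and 63 of each model, with their median (coloured) and with Rps4x and Rplp0 drawn out. Comparisons with untreated share the same 3 untreated libraries. In BLM the median is 0.36, 0.40 and 0.06, and in SiO2 it is 0.62, 0.04 and 0.10.

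By day 63 most members were no longer called against untreated cells. After BLM, 6 of 79 were higher and 0 lower (6.02% and 5.48% of all genes), close to the share of all genes, with a median of 0.06. An unadjusted p under 0.05 for an increase was seen in 19, and for a decrease in 6, and DESeq2 called 5 higher and 0 lower. Among them were Rps4x at 0.76 ± 0.20, Rpl22 at 0.55 ± 0.16, Rpl4 at 0.47 ± 0.15, Rps10 at 0.41 ± 0.12 and Rpl17 at 0.35 ± 0.11. A single member was called without untreated replicate 1, and 3 each without untreated replicate 3, BLM day 63 replicate 2 or BLM day 63 replicate 3, and Rpl4 lost its call under RLE scaling. From day 14 to day 63 of BLM, 41 members fell and 0 rose (16.9% and 15.4% of all genes), with a median of -0.35. One member had an unadjusted p under 0.05 for an increase, and DESeq2 called 38 lower and 0 higher.

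After SiO2 at day 63, 11 members were higher and 2 lower than in untreated cells (15.3% and 12.5% of all genes), with a median of 0.10. Both counts are at or below the share of all genes. The higher ones included Rpl15, Rpl22, Rpl32, Rpl4, Rpl7l1, Rplp0, Rps10, Rps2, Rps4x and Rps6, and the lower ones Rpl21 at -0.51 ± 0.11 and Rps24 at -0.35 ± 0.10, whose call was lost without the filter on low counts. Rps4x was at 168, 165 and 158 CPM at BLM day 63 and 184, 178 and 177 CPM at SiO2 day 63, in both above all untreated libraries, and the SiO2 change was 0.90 ± 0.20. From day 14 to day 63 of SiO2, 1 member rose and 0 fell (1.53% and 2% of all genes). In edgeR 2 had an unadjusted p under 0.05 for a decrease, and DESeq2 called 2 higher and 0 lower. Without SiO2 day 14 replicate 1 or 2, 0 members were called higher.

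Between the models at day 63, 3 members were higher after SiO2 and 1 lower (9.13% and 6.44% of all genes). They were Rps2 at 0.40 ± 0.10, Rpl15 at 0.32 ± 0.08 and Rpl29 at 0.30 ± 0.09, and Rpl21 at -0.33 ± 0.11. Rpl29 lost its call under upper quartile and library-size scaling. Without SiO2 day 63 replicate 3 a single member was higher, and the call of Rpl21 was lost without that library, SiO2 day 63 replicate 1, BLM day 63 replicate 2 or BLM day 63 replicate 3. The change from day 14 to day 63 was more positive in SiO2 than in BLM for 23 members and less positive for 0 (9.7% and 8.81% of all genes), with a median difference of 0.37. No member had an unadjusted p under 0.05 for a less positive change, and DESeq2 called 21 and 0. The count was 15 without BLM day 14 replicate 1 and 15 without BLM day 63 replicate 3.

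**Figure D4:**
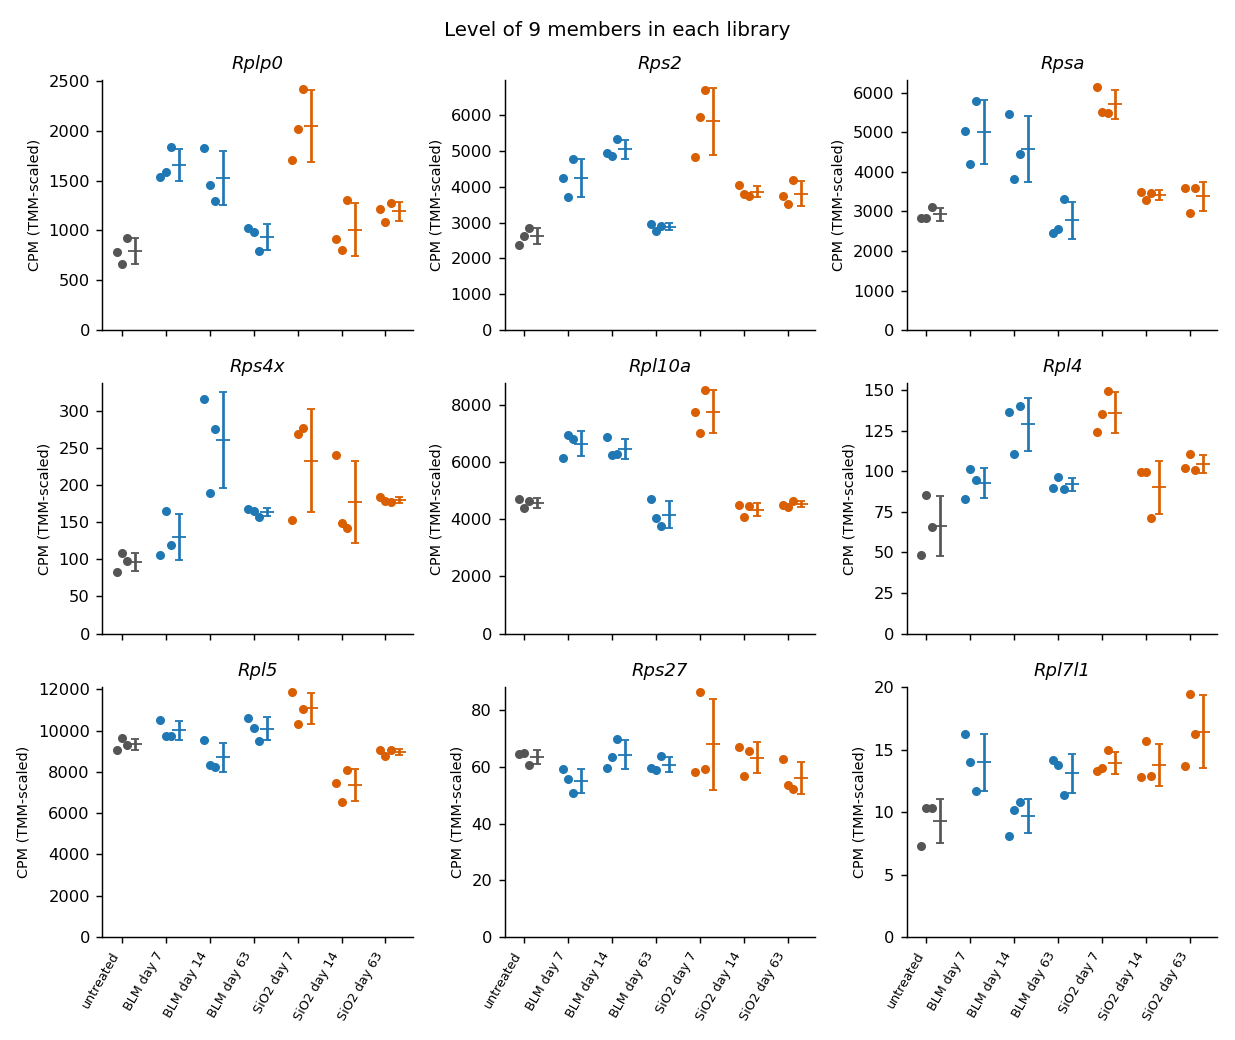
CPM of 9 members in every library by group, with the mean ± SD of 3 libraries beside the points. Rplp0, Rps2 and Rpsa have their highest means at day 7 and 14 of BLM and at day 7 of SiO2. Against untreated, Rps4x and Rpl4 are also called higher at SiO2 day 14 and at day 63 of both models. Rps2 is also called higher at SiO2 day 14 and 63, and Rplp0 at SiO2 day 63. The call of Rpl4 at SiO2 day 14 is lost under DESeq2, and Rps27 has no called change.

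The stalk of the large subunit recruits the elongation factors, and Rplp0, described above, holds it. Rplp1, which forms dimers with Rplp2 on Rplp0, was at 61.4, 104 and 74.4 CPM in untreated libraries and 104, 137 and 119 CPM at SiO2 day 7, an increase of 0.58 ± 0.19, and was at 0.34 ± 0.19 at BLM day 7 and 0.43 ± 0.19 at BLM day 14, neither called. The call of Rplp1 at SiO2 day 7 was lost under DESeq2 (adjusted p = 0.0621) and without untreated replicate 1 or 3 or SiO2 day 7 replicate 2, and without untreated replicate 2 or without the filter on low counts Rplp1 was called at BLM day 7 and 14 too. Rplp2, whose 3′ end is unique, rose by 0.49 ± 0.14 at SiO2 day 7, with values of 0.12 and 0.20 at BLM day 7 and 14 that were not called, and its call at SiO2 day 7 was lost without untreated replicate 3. Whether these changes differ from that of Rplp0 was not tested.

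Some members have known roles in signalling. Rps6, the substrate of the S6 kinases, was at 822, 878 and 1006 CPM in untreated libraries and 1239.5, 1282 and 1633 CPM at SiO2 day 7 (0.62 ± 0.13), and it rose by 0.43 ± 0.13 at BLM day 7, a call lost without untreated replicate 1. Rps27a, made as a fusion with ubiquitin, went from 68.6, 61 and 77.7 CPM to 91.7, 107 and 102 CPM at BLM day 7 (0.55 ± 0.11) and 108, 104 and 117 CPM at SiO2 day 7 (0.68 ± 0.11), each without overlap. Rpl11 rose by 0.48 ± 0.10 at SiO2 day 7, and its partner Rpl5 by 0.25 ± 0.09, a call lost under upper quartile scaling and without untreated replicate 1 or 3 or SiO2 day 7 replicate 1 or 3.

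Several ribosomal proteins have paralogs, and some of these may take their place in ribosomes. Rps27l, known as a target of p53, was at 41.4, 27.6 and 35.1 CPM in untreated libraries, 49, 57.3 and 56.4 CPM at BLM day 7 and 43.1, 53.9 and 51.4 CPM at SiO2 day 7. It rose by 0.65 ± 0.15 and 0.51 ± 0.15, while Rps27 was at -0.21 ± 0.14 and 0.09 ± 0.13, neither called. Of the 25-base stretches at the 3′ end, 0% were unique in Rps27 and 86.9% in Rps27l. Whether the changes of these genes differ was not tested. The call of Rps27l at SiO2 day 7 was lost without untreated replicate 2. Rpl22l1 rose by 0.55 ± 0.16 at BLM day 14, a call lost without untreated replicate 1, and was at -0.05 ± 0.16 at BLM day 63 without a call. Rpl22, which its paralog can replace and which binds RNA outside the ribosome, was higher at day 63, at 44.8, 41.6 and 44.9 CPM after BLM and 37.8, 41 and 44.3 CPM after SiO2 against 26.9, 32.9 and 30 CPM. Rpl22 lost its BLM day 63 call without untreated replicate 1 or BLM day 63 replicate 1 or 3, and its SiO2 day 63 call without untreated replicate 1 or 3 or SiO2 day 63 replicate 2 or 3, and both DESeq2 and upper quartile scaling gave no call for it there. Rpl7l1 was at 7.25, 10.3 and 10.3 CPM in untreated libraries and 13.7, 19.4 and 16.2 CPM at SiO2 day 63 (0.84 ± 0.20), where Rpl7 was at 0.24 ± 0.11 without a call. Whether Rpl7l1 takes the place of Rpl7 was not tested. Rpl10l was not among the 82 members, and Rpl3 rose by 0.52 ± 0.11 at BLM day 7, 0.61 ± 0.11 at BLM day 14 and 0.71 ± 0.11 at SiO2 day 7.

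Ribosomal proteins that the naming rule leaves out were counted beside the members. Gnb2l1, which encodes the scaffold Rack1 of the small subunit, rose by 0.62 ± 0.10 at BLM day 7, 0.56 ± 0.10 at BLM day 14 and 0.80 ± 0.11 at SiO2 day 7, and fell from day 7 to day 14 of SiO2 (log2 fold change -0.79 ± 0.10). Fau, a fusion of the small subunit, rose by 0.39 ± 0.14 at SiO2 day 7 and had no call at BLM day 7 or 14. Of the 5 such genes, 4 rose at SiO2 day 7 (23.4% of all genes), and all 5 were without a call at SiO2 day 63.

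Other messenger RNAs of the TOP class, which encode elongation factors and related proteins, were counted as a list. Of 12 such genes, 8 rose at BLM day 7, 8 at BLM day 14 and 11 at SiO2 day 7, with medians of 0.48, 0.47 and 0.59. In these comparisons 16.7%, 20.7% and 23.4% of all genes rose. Eef1g, a subunit of the factor that reloads Eef1a1 with GTP, rose by 0.81 ± 0.10, 0.88 ± 0.10 and 1.07 ± 0.10, and Pabpc1, the poly(A)-binding protein, by 0.99 ± 0.13, 0.91 ± 0.13 and 1.21 ± 0.13. Eef1a1 itself rose by 0.60 ± 0.07 at SiO2 day 7. From day 7 to day 14 of SiO2, 10 of the 12 fell (11.1% of all genes), among them Eef1b2 (log2 fold change -0.98 ± 0.15). At day 14, 6 of 12 were lower after SiO2 than after BLM (8.03% of all genes). At SiO2 day 63, Eef1g, Eef2 and Eef1a1 were higher than in untreated cells, Eef1g by 0.49 ± 0.10.

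Translation initiation factors rose more often than they fell. Of 32 tested, 7 rose and 2 fell at BLM day 7, 12 rose and 3 fell at BLM day 14, and 16 rose and 2 fell at SiO2 day 7. As shares that rose these are 21.9%, 37.5% and 50% of the list, where 16.7%, 20.7% and 23.4% of all genes rose. In the same comparisons 14.9%, 18.5% and 20.6% of all genes fell. Among the 16 that rose at SiO2 day 7 was Eif4g1, the scaffold of the cap-binding complex, by 0.98 ± 0.14. Eif4a2, one of the helicases of that complex, fell there (log2 fold change -1.06 ± 0.13), as did Eif1, which checks the start codon (-0.81 ± 0.11). Of 22 tested regulators of mTORC1 and of TOP messenger RNAs, 4 were higher and 3 lower at SiO2 day 7 (18.2% and 13.6%), both below the 23.4% and 20.6% of all genes. Ddit4, an inhibitor of mTORC1 induced by stress, was at 4.14, 3.27 and 2.34 CPM in untreated libraries and 93.8, 95.1 and 137 CPM at SiO2 day 7, a change of 4.99 ± 0.30. Rheb, an activator of mTORC1, rose by 0.88 ± 0.14, and the inhibitors Sesn2 and Sesn1 were higher at 0.81 ± 0.19 and lower at -1.29 ± 0.22. Of 19 tested genes for assembly and surveillance of ribosomal proteins, 5 rose and 2 fell at SiO2 day 7 (26.3% and 10.5%), a share of higher genes near that of all genes. Among those that rose, Mrto4, which places the stalk on the large subunit, was higher by 1.00 ± 0.19, and Abce1, which splits ribosomes for reuse, by 1.19 ± 0.23.

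Mitochondrial ribosomal proteins, which build a separate ribosome, were mostly not called. Of 72 tested, 10 rose and 2 fell at BLM day 7, 7 rose and 5 fell at BLM day 14, 10 rose and 2 fell at SiO2 day 7, and 1 rose and 4 fell at SiO2 day 14. The shares that rose, 13.9%, 9.72%, 13.9% and 1.39%, were below the 16.7%, 20.7%, 23.4% and 13.6% of all genes. Their medians were 0.18, 0.04, 0.20 and -0.15, where those of the cytosolic members were 0.36, 0.40, 0.62 and 0.04. The difference between both families was not tested.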

How the data were processed

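Per the labels' protocols, RNA from sorted fibroblasts was captured on oligo(dT) beads, amplified and sequenced as 3′ tags on an Ion Proton instrument. The authors deposited 1 table of raw counts per gene symbol and library, with no normalization, and these counts were used as deposited. The submitters' processing notes name Bowtie2 2.2.5 and mm10, and the annotation, counting program, strand setting and handling of tags with several matches are not given in the sources used here. Tags carried no stated molecular identifier, so precision from depth covers counting error only.

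Libraries were grouped by their labels. Genes were filtered with filterByExpr (11669 kept, 99.7% of counts), scaled by TMM and fitted in 1 edgeR 4.0.16 quasi-likelihood model (R 4.3.3) with the 7 groups as a factor, no covariate, 14 residual degrees of freedom and a biological coefficient of variation of 12.0%. P-values were adjusted by the Benjamini-Hochberg method over all tested genes of a contrast, and 0.05 was the threshold. The 15 contrasts include 3 added after values were seen, which are day 14 against day 7 in each model and their interaction. An interaction is the change in SiO2 minus that in BLM. CPM values are TMM-scaled. The steps were tested on simulated data in which few genes were changed, up and down alike. Broad shifts of the members in the same direction were not covered by it. Replicate numbers did not pair libraries (median correlation of same-number pairs -0.0004), so no block was used.

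Alternatives were RLE, upper quartile and library-size scaling, TMM without the members, no filter, DESeq2 1.42.0, a replicate block and leaving out each library. The members and lists were chosen with earlier results of these data known. Named are, per contrast, the 5 highest and the 5 lowest log2 fold changes among called members, the most and least abundant members, the paralogs, stalk and signalling members and, per list, up to 4 genes with the smallest adjusted p. Some genes that this rule names are not reported here. Starts came from RefSeq (GRCm38.p6) and 3′ ends from GENCODE vM21.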

Additional observations from a re-analysis of the deposited data

Results flagged for a closer look

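The change from day 7 to day 14 differed between the models for 60 of the 79 tested members, each lower in SiO2 than in BLM. The interaction test in edgeR, with Benjamini-Hochberg adjustment over all genes, called 9.47% of all genes lower and 9.74% higher. This comparison was added after values had been seen. The 5 largest differences, on the log2 scale, were those of Rps4x (-1.39 ± 0.27), Rpl32 (-1.30 ± 0.20), Rps15a (-1.11 ± 0.23), Rpl4 (-1.07 ± 0.21) and Rpl41 (-1.06 ± 0.16). Rpl41 was at 175, 189 and 192 CPM at BLM day 7 and 219, 197 and 208 CPM at BLM day 14, and at 237, 291 and 252 CPM at SiO2 day 7 and 167, 129 and 126 CPM at SiO2 day 14.

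The change from day 14 to day 63 differed by the same kind of test for 23 of the 79 tested members, each more positive in SiO2. Of all genes, 9.7% were higher and 8.81% lower. The count of members was 15 without BLM day 14 replicate 1 and 15 without BLM day 63 replicate 3. The 5 largest differences were those of Rplp0 (0.95 ± 0.22), Rpl29 (0.84 ± 0.13), Rps2 (0.79 ± 0.15), Rpl32 (0.76 ± 0.20) and Rpl22l1 (0.75 ± 0.22), the last of which was not called without BLM day 14 replicate 1 or BLM day 63 replicate 1. Rpl29 went from 1604, 1415 and 1393 CPM to 806, 865 and 892 CPM in BLM and from 1032, 992 and 1021 CPM to 1064, 1024 and 1070.4 CPM in SiO2. Both interactions use the same day 14 libraries, so they are not independent of each other.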

How the results depend on the processing

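No called fold change of a named member changed sign under an alternative. The members' median at SiO2 day 14 against untreated (0.04) was -0.04 under upper quartile scaling, and from day 7 to day 14 of BLM (0.02) it was -0.0035 under upper quartile and -0.012 under library-size scaling. The counts of members called at BLM day 7 and 14, SiO2 day 7, SiO2 against BLM at day 7 and 14, and from day 7 to day 14 of SiO2 stayed within 1.5 times under every scaling, filter, DESeq2 and the replicate block. At SiO2 day 14 against untreated, 3 members in place of 5 were higher under RLE, upper quartile and library-size scaling and under DESeq2. The lower ones numbered 6, 9 and 7 under these scalings, 6 under DESeq2 and 1 without the filter, in place of 3. At SiO2 day 63, 4 were lower under upper quartile scaling and 1 without the filter, in place of 2. Between the models at day 63, 6 were higher and 0 lower without the filter, in place of 3 and 1. From day 14 to day 63 of BLM, 1 in place of 0 was higher under upper quartile scaling, library size alone and the replicate block, and in SiO2 3 under library size, 2 without the filter, 2 under DESeq2 and 2 under the replicate block, in place of 1. With effective library sizes the summed share was 6.65% in untreated cells and 6.82% at BLM day 63, in place of 6.72% and 7.12%.

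Leaving out 1 library gave 1 to 6 members higher at BLM day 63, 2 to 6 higher and 1 to 5 lower at SiO2 day 14, 6 to 19 higher at day 7 and 18 to 46 lower at day 14 of SiO2 against BLM, 1 to 4 higher and 0 to 1 lower at day 63, 0 to 1 and 0 to 3 higher from day 14 to day 63 of BLM and SiO2, 1 to 3 higher from day 7 to day 14 of BLM, and 15 to 26 in the day 14 to 63 interaction. The SiO2 day 7 count was 59 to 73. Library-size scaling moved the median of all genes by 0.10 for BLM day 63 against day 14, and the share of higher among called genes from 47.7% to 60.1%, and upper quartile scaling moved that share from 56.4% to 44.8% at SiO2 day 14. Same-number libraries did not pair (0 of 63 pairs correlated above 0.1, and 4 of 21 libraries correlated best with their own number). With 3 libraries per group, small changes of members under 100 CPM are the least certain.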

Other observations

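Symbols that name ribosomal protein pseudogenes, 12 of them tested, were counted in the same fit. At SiO2 day 7, 8 rose and 1 fell (23.4% and 20.6% of all genes), with a median of 0.57. From day 7 to day 14 of SiO2, 9 fell (11.1% of all genes), with a median of -0.67. At SiO2 against BLM on day 14, 6 were lower (8.03% of all genes). Their summed share ranged from 0.16% to 0.264% over the 21 libraries.

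The 45S ribosomal RNA precursor entry Rn45s had a share of 0.0887% to 0.112% without treatment, and of 0.148% to 0.249% after BLM or SiO2. It was highest at BLM day 14, at 0.231% ± 0.0178 (SD, n = 3), and was 0.182% ± 0.0154 at SiO2 day 14. The RNA was captured on oligo(dT) beads, so these shares are not a measure of ribosomal RNA synthesis, and they were not tested.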
